A study of Mus musculus and blank sample with 191 samples.

Results

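The transcripts described here are those of plasma cells and of immunoglobulin transport in the mouse uterus: Jchain, Igha, Ighm, Mzb1, Xbp1, Tnfrsf17, Cd79a, Cd79b and Pigr. These 9 genes were chosen by name, with earlier results of these data known. All 9 are targets of the count table, which lists 19962 targets. Of the 9, 8 are also in the authors' filtered table of 14881 targets. Cd79a is not, and its values are given from the full table. The study compared the uterus of Thra1PV/+ mice with that of wild-type (WT) mice by spatial profiling of fixed sections. Thra1PV/+ mice (PV/N in the labels) carry on 1 allele a knock-in frame-shift mutation of the thyroid hormone receptor TRα1, named PV, which makes a dominant-negative receptor in every cell that expresses the gene. WT mice (N/N) carry none. The females were matched to metestrus, per the study's methods. A pathologist chose small regions of epithelium or stroma by morphology and by staining for pancytokeratin and smooth muscle actin, and RNA in each region was counted with 1 probe per gene.

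On the first plate, 95 regions were used: 31 of epithelium and 21 of stroma from 6 PV mice, and 29 of epithelium and 14 of stroma from 8 and 7 WT mice. The labels name 8 WT mice, and the design text 1 fewer. The ages in the labels carry no unit and were read as months. They ran from 2.4 to 6.3 months in PV mice and from 4.0 to 9.0 months in WT mice. Counts were summed per mouse and compartment before any test, so the mouse is the replicate. Mice are named PV1 to PV6 and WT1 to WT8, in an order of no meaning. Levels are given as CPM, the count of a gene scaled to the total count of its sample after TMM normalisation, and because each gene has its own probe, levels are compared between samples and not between genes. Luminal and glandular epithelium were not separated by the labels.

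Plasma cells are the end stage of B cells and secrete antibody. In the wall of mucosal organs most of them make IgA, whose heavy chain is encoded by Igha, and join it into dimers with the J chain, encoded by Jchain. Epithelial cells take up dimeric IgA and pentameric IgM at their base with the polymeric immunoglobulin receptor, the product of Pigr, and release them into the lumen. In the rodent uterus sex steroids are known to act on both IgA and Pigr.

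Jchain lies at chr5:88519809-88527891 on the minus strand and Pigr at chr1:130826684-130852249 on the plus strand (GRCm38, GENCODE annotation), both protein-coding. Igha, at chr12:113254830-113260236, and Ighm, at chr12:113418558-113422730, are constant-region genes of the immunoglobulin heavy chain locus, on the minus strand. Among the 5 members with a listed start site, Jchain had the largest log2 difference between genotypes and Pigr the largest between compartments. The genotype difference of Jchain did not pass (adjusted p = 0.828 in stroma and 0.121 in epithelium, edgeR), and Pigr was not alone in differing between compartments. The start-site regions of Jchain and Pigr are printed as a description only. Both come from RefSeq (GRCm38.p6) and hold 250 bases before and 50 after the start site. Of the 9 members, 5 had an entry in that table. Capitals mark AGGTCA in Jchain, the half-site that thyroid hormone receptors and other nuclear receptors bind, and CACGTG, an E-box, in Pigr.
Jchain, chr5:88527848-88528147, minus strand: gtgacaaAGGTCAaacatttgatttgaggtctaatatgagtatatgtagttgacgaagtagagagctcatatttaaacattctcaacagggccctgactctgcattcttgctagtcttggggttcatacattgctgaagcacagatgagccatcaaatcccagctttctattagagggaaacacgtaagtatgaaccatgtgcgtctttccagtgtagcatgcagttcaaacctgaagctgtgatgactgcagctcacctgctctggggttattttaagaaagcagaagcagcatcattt
Pigr, chr1:130826434-130826733, plus strand: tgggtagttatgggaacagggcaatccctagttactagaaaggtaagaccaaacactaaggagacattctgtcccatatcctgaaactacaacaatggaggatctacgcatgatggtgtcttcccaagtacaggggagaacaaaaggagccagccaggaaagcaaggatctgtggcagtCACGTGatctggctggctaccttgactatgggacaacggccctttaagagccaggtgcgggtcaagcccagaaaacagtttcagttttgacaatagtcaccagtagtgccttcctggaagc
Searched on both strands, AGGTCA stood in 16.3% of 32851 promoters of this length, CACGTG in 7.15% and the octamer ATGCAAAT, known from immunoglobulin promoters, in 1.74%. AGGTCA was not found in the windows of Pigr, Cd79a, Xbp1 or Tnfrsf17, and the octamer in none of the 5. No match overlapped another. A match is a description of the letters and not of binding.

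The depth of a region ran from 61691 to 3130397 counts with a median of 653387, and the negative probes gave a median of 3.36 counts. The labels of compartment went with their markers. On the log2 ratio of 12 columnar epithelium markers to 10 fibroblast markers, the lowest epithelial region of the first plate was at 0.15 and the highest stromal region at -2.57. On the second plate, 18 of 57 regions labelled epithelium were at or below that stromal value, and 12 of 37 labelled stroma were at or above the epithelial one, so values with both plates are given only as an alternative. PV2 had 1 region in each compartment and the smallest sums, 61691 counts in epithelium and 85336 in stroma. The members differed in how far they stood above the negative probes. In PV stroma the median mouse had 690 times the negative-probe count for Igha and 111 times for Jchain, against 4.25 times for Mzb1, 2.91 for Tnfrsf17, 2.52 for Cd79b and 1.98 for Cd79a. Small differences of these last 4 genes therefore rest on counts near the background. Jchain in WT mice was low too, at a median of 3.08 times the negative probes in stroma and 3.99 times in epithelium. Its fold differences between genotypes therefore divide by a level near the background. Igha in WT mice was at 18.1 and 18.3 times.

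Whether the stroma of PV mice held other levels of plasma cell transcripts than WT stroma was asked first. The transcripts of the IgA-secreting cell were higher in the stroma of most PV mice. Jchain was at 53.6 CPM in the lowest of 6 PV mice, 1092 in the median and 1993 in the highest. In 7 WT mice it was at 13.1, 20.2 and 396 CPM. In 5 of 6 PV mice Jchain was above every WT mouse, and the exception was PV4, at 53.6 CPM, which lay below WT1, WT5 and WT8. The difference was 3.15 ± 0.82 on the log2 scale (SE, edgeR's quasi-likelihood test), an 8.85-fold difference. Its adjusted p was 0.828 over all genes, and the unadjusted exact permutation p over mice was 0.00932 (two-sided, 1716 splits). More plasma cells and more transcript per cell cannot be told apart in such regions.

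Igha had the same low PV mouse and the same high WT mice. It was at 269 CPM in the lowest PV mouse, PV4, at 5485 in the median and at 13331 in the highest, PV1. In WT stroma it was at 11.2, 84.9 and 2191 CPM, a 196-fold range, with WT1 at 2191 and WT8 at 1811. Again 5 of 6 PV mice were above every WT mouse. The log2 difference was 3.19 ± 1.03 (SE) with an adjusted p of 1.00 by edgeR, and an unadjusted exact permutation p of 0.0140. Among 14881 genes tested, 73 (0.491%) had at least 5 PV mice above every WT mouse, and Jchain and Igha were the 2 of 8 tested members that did. Ranked by log2 fold change, Igha was gene 4 and Jchain gene 5 from the top of 14881.

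No gene of the whole table passed an adjusted p of 0.05 in stroma (0%), and none of the 8 members did. At an unadjusted p under 0.05 edgeR returned 524 genes (3.52%), of which 316 were higher (2.12%) and 208 lower (1.4%) in PV mice, and DESeq2 called 2 genes after adjustment (0.0134%), neither of them a member. Jchain, Igha and Mzb1 were among those 316 genes. Leaving out 1 mouse at a time kept the log2 difference of Jchain between 2.83 and 3.93 and that of Igha between 2.78 and 3.88. Without PV4 they were 3.40 and 3.44, and without WT1 3.93 and 3.88. With both plates as labelled they were 1.74 and 1.68.

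**Figure D1:**
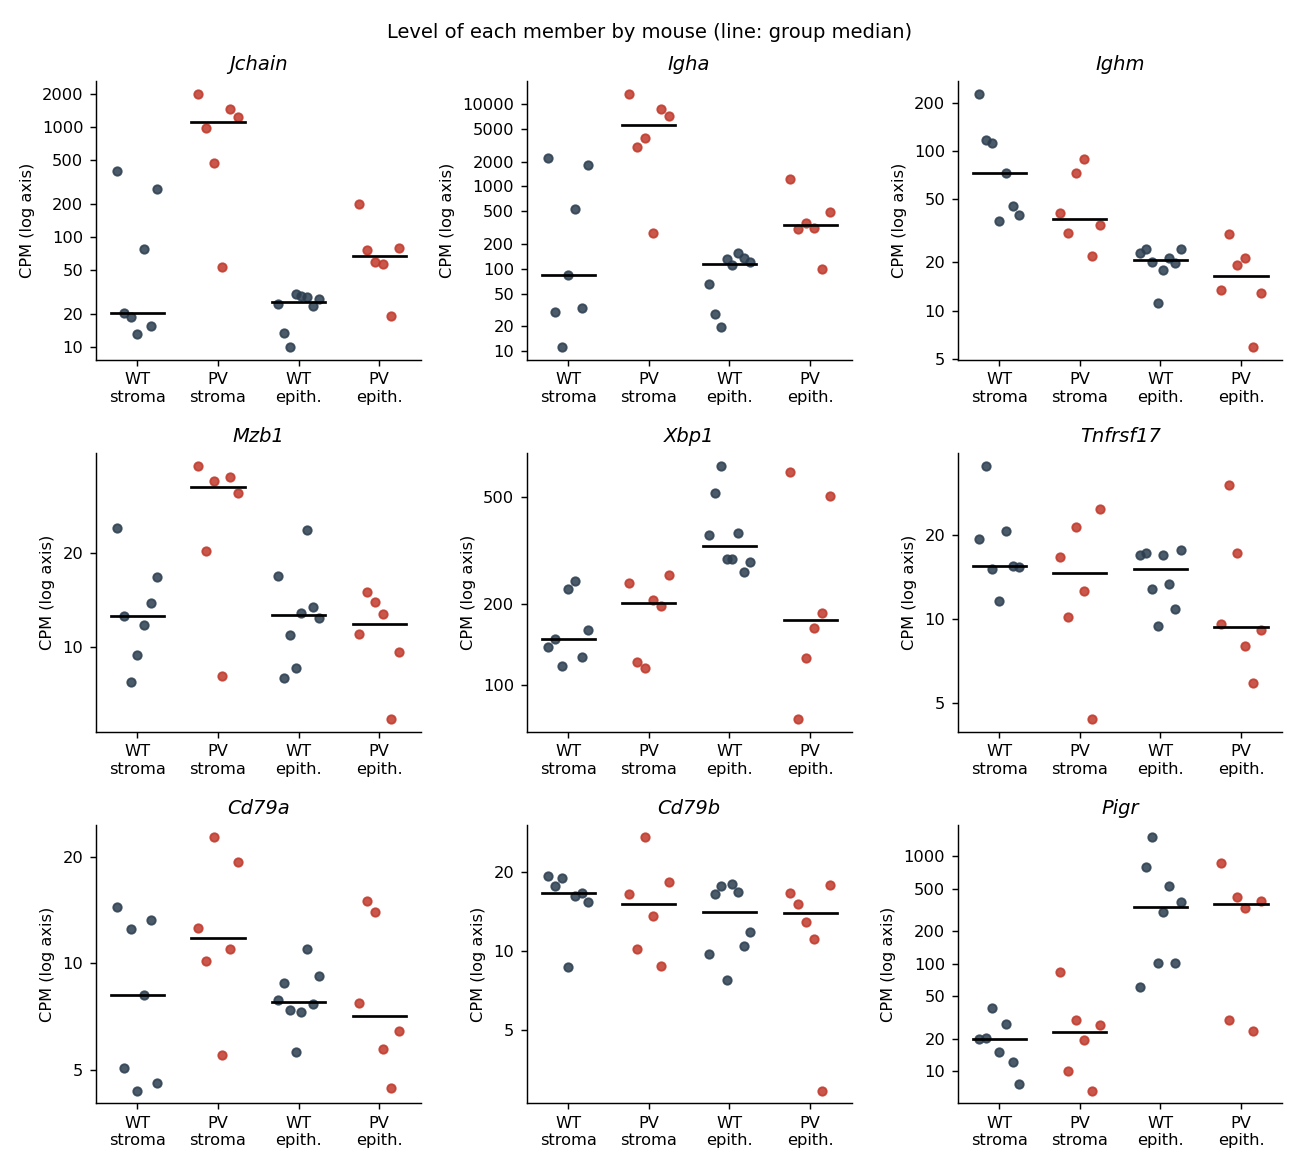
Level of each of the 9 members by mouse, in CPM on a log axis, for WT stroma (7 mice), PV stroma (6), WT epithelium (8) and PV epithelium (6); each point is 1 mouse, the line is the group median and the vertical range differs by panel. Jchain and Igha separate most PV stroma samples from most WT ones, with PV4 low among PV mice, while Cd79b overlaps throughout.

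The light chains, which are no members of the list, were read beside Igha. Igkc, the kappa constant region, was at 281, 4429.8 and 11704 CPM in PV stroma and at 9.91, 112 and 2425 CPM in WT stroma, with 5 of 6 PV mice above every WT mouse. Iglc1, a lambda constant region, was at 9.68, 52.1 and 1681 CPM in PV stroma and at 12.3, 19.8 and 53.5 CPM in WT stroma. The highest Iglc1 value belonged to PV6 and the next, in PV5, was 163 CPM, so the lambda chain stood highest in 1 mouse. Its log2 difference of 3.89 ± 0.89 (SE, adjusted p = 0.579, edgeR) was the highest of all genes tested.

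The other plasma cell members did not move as a block. Mzb1, a chaperone of the endoplasmic reticulum that assists antibody folding, was at 8.07, 32.7 and 38.3 CPM in PV stroma and at 7.75, 12.6 and 24.1 CPM in WT stroma. Its log2 difference was 1.03 ± 0.34 (SE, adjusted p = 1.00, edgeR) with 4 of 6 PV mice above every WT mouse, as was the case for 343 genes or 2.3%, and the lowest value was again PV4. Xbp1, a transcription factor that plasma cells need for secretion and that many other cells use in the unfolded protein response, was at 117, 203 and 256 CPM in PV stroma and 118, 149 and 243 CPM in WT stroma. Its ranges overlapped fully, with a log2 difference of 0.23 ± 0.24 (SE, adjusted p = 1.00). Tnfrsf17 encodes BCMA, a survival receptor of plasma cells. It was at 4.40, 14.6 and 24.8 CPM in PV stroma and at 11.6, 15.5 and 35.4 CPM in WT stroma, and its log2 difference was -0.13 ± 0.28 (SE).

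Ighm, the IgM heavy chain, had the opposite sign to Igha. It was at 22.0, 37.6 and 88.4 CPM in PV stroma and at 36.3, 73.0 and 228 CPM in WT stroma. The log2 difference was -0.85 ± 0.41 (SE, adjusted p = 1.00, edgeR), the groups overlapped, and the exact permutation p was 0.125. The highest Ighm value was in WT1, and without WT1 the log2 difference was -0.41, and with age as a covariate -0.25. PV4, lowest in Igha and Jchain among PV mice, was highest in Ighm. Cd79a and Cd79b, the signalling chains of the B cell receptor, were at 5.49, 11.8 and 22.7 CPM and at 8.80, 15.0 and 27.0 CPM in PV stroma. In WT stroma they were at 4.35, 8.11 and 14.5 CPM and at 8.71, 16.6 and 19.3 CPM. The log2 difference was 0.34 ± 0.31 for Cd79a (SE, adjusted p = 1.00, edgeR without the gene filter) and 0.04 ± 0.24 for Cd79b. Pigr in stroma differed by 0.80 ± 0.41 (SE, adjusted p = 1.00), and by -0.00621 without PV1.

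**Figure D2:**
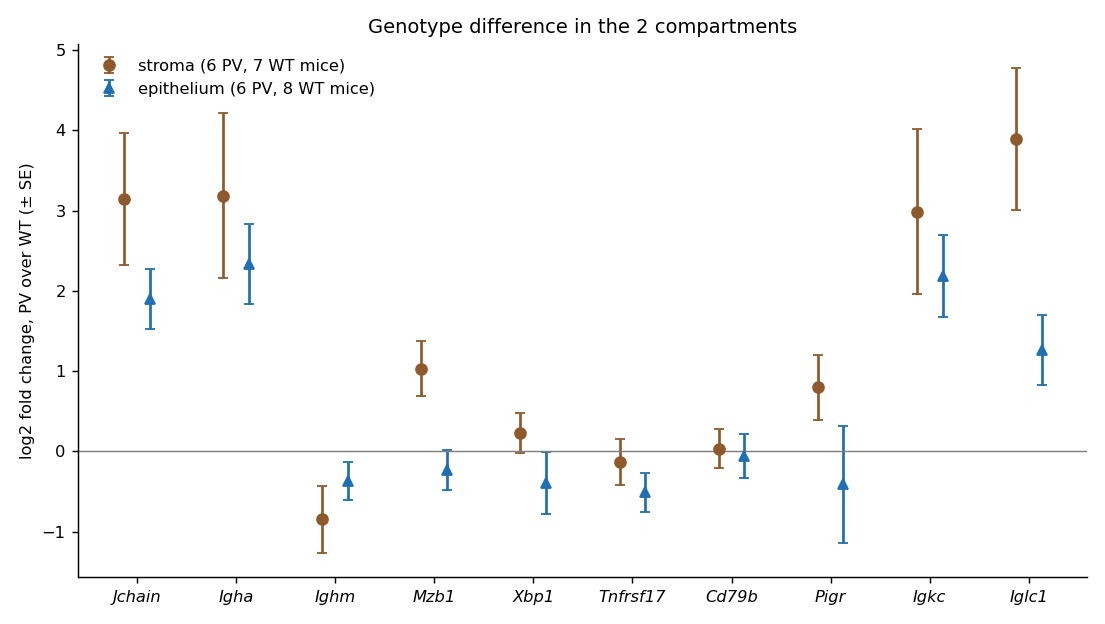
Log2 fold change of PV over WT in stroma (circles, 6 PV and 7 WT mice) and epithelium (triangles, 6 and 8 mice) for 8 members and for the light chains Igkc and Iglc1; bars are the standard error from edgeR. Jchain, Igha and Igkc are above 0 in both compartments, and none of the values passed an adjusted p of 0.05.

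Single regions showed how the IgA transcripts were spread within a mouse. In the 10 stromal regions of PV1 Jchain ran from 169 to 4758 CPM, with a median of 1282. The 4 stromal regions of PV4 ran from 14.7 to 113 CPM. In WT1 the 3 stromal regions ran from 10.5 to 681 CPM, so 1 WT mouse held both a region near the background and others in the range of PV mice. Of the variance of log2 Jchain over stromal regions, differences between mice made up 71.7% for PV mice and 58.9% for WT mice. The epithelial shares were 27.6% and 29.8%. These shares were not corrected for the number of regions, and such a share rises as regions per mouse fall. Stroma had fewer per mouse, with 14 regions from 7 WT mice against 29 from 8 in epithelium. The shares therefore cannot show whether mice differed more in stroma than in epithelium. All 21 PV stromal regions, and 10 of 14 WT stromal regions, had Jchain above 2 times their own negative-probe count.

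Jchain and Igha followed each other region by region. Pearson's r of their log2 values was 0.97 over 35 stromal regions and 0.96 over 60 epithelial regions, and Igha with Igkc gave 0.99 in both. Regions of a mouse share their tissue block and section, and these values are a description. Over the 13 stromal sums Jchain gave r of 0.89 with Mzb1, 0.20 with Xbp1, 0.05 with Pigr, -0.24 with Tnfrsf17 and -0.38 with Ighm. In the 14 epithelial sums its r with Mzb1 was 0.17, where Mzb1 lay near the negative probes.

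**Figure D3:**
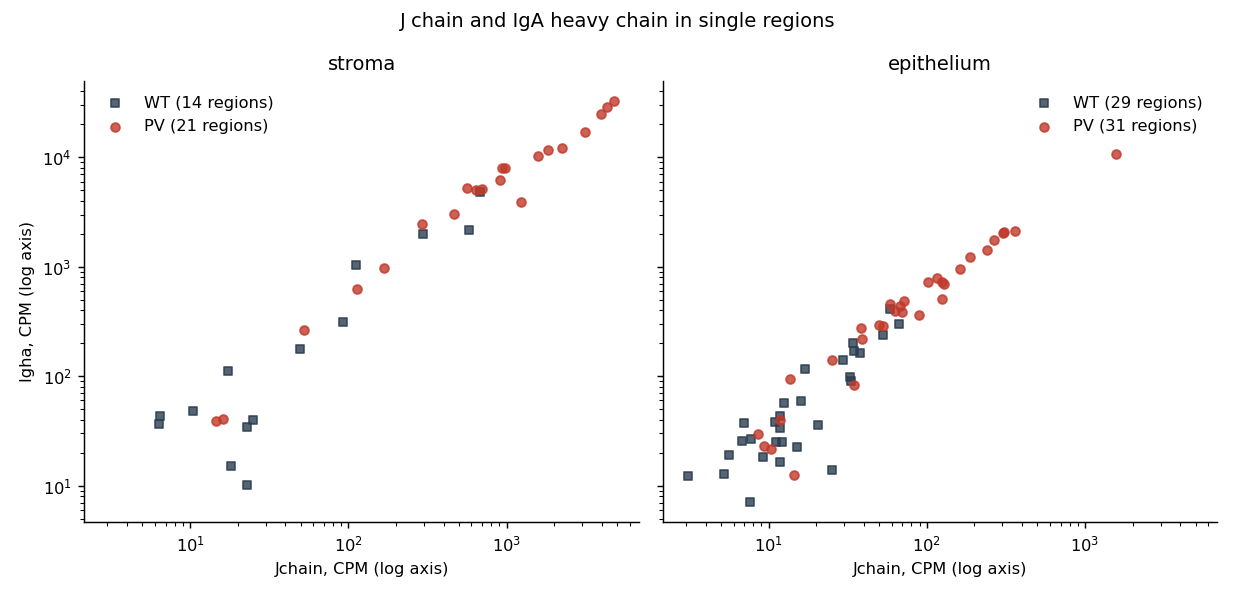
Igha against Jchain in single first-plate regions, both in CPM on log axes, for stroma (14 WT and 21 PV regions) and epithelium (29 WT and 31 PV regions); circles are PV regions and squares WT regions. The points lie along 1 band in both compartments, and the highest stromal regions are those of PV mice.

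The same question was asked of the epithelium, where the spread of the IgA transcripts between mice was smaller and their levels in most PV mice were lower than in stroma. Jchain was at 19.2, 67.2 and 197 CPM in the lowest, median and highest of 6 PV mice and at 9.91, 25.6 and 30.1 CPM in 8 WT mice. It was above every WT mouse in 5 of 6 PV mice, and the exception here was PV5, at 19.2 CPM. The log2 difference was 1.90 ± 0.37 (SE), a 3.72-fold difference, with an adjusted p of 0.121 by edgeR and an unadjusted exact permutation p of 0.00266 (two-sided, 3003 splits). Igha was at 100, 340 and 1244 CPM in PV epithelium and at 19.5, 116 and 154 CPM in WT epithelium, also with 5 of 6 PV mice above every WT mouse. Its log2 difference was 2.33 ± 0.50 (SE, adjusted p = 0.186, edgeR). Igkc differed by 2.18 ± 0.51 (SE, adjusted p = 0.297). In epithelium too, 73 genes (0.491%) had at least 5 PV mice above every WT mouse.

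By edgeR no gene of 14881 passed an adjusted p of 0.05 in epithelium (0%), and 1223 (8.22%) had an unadjusted p under 0.05. Jchain and Igha were among the 657 higher in PV mice (4.42%), and Tnfrsf17 among the 566 lower (3.8%). By DESeq2 28 genes (0.188%) passed after adjustment, and Jchain (adjusted p = 0.00338) and Igha (adjusted p = 0.00289) were 2 of them. Over the other alternatives and the mice left out in turn, none of which called a member, the log2 difference of Jchain stayed between 1.29 and 2.18 and that of Igha between 1.73 and 2.55. The lowest values of both were those without PV1, the mouse with 15 epithelial regions. In mice of 4.0 to 6.3 months, a span that holds both genotypes and was set after the values were seen, the log2 difference was 1.90 for Jchain and 2.35 for Igha in epithelium and 2.59 and 2.71 in stroma.

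Epithelial regions also held stromal transcripts. The summed level of the 10 fibroblast markers was 526 to 1866 CPM in PV epithelium and 736 to 2298 CPM in WT epithelium, against 3767 to 21059 CPM and 6392 to 14414 CPM in the stroma of the same groups. Between genotypes in epithelium, 1 of 10 fibroblast markers had a positive log2 difference, and 2 had an unadjusted p under 0.05 by edgeR in the lower direction. The stroma itself held a median of 1092 CPM of Jchain in PV and 20.2 CPM in WT mice. For Igha these medians were 5485 and 84.9 CPM. The part of stromal transcripts in the epithelial Jchain and Igha values was not tested.

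The remaining members overlapped between genotypes in epithelium. Ighm was at 5.90, 16.4 and 30.0 CPM in PV and 11.2, 20.8 and 24.4 CPM in WT epithelium, with a log2 difference of -0.37 ± 0.24 (SE, adjusted p = 0.698). Mzb1 was at 5.90, 11.9 and 15.0 CPM against 7.98, 12.7 and 23.7 CPM. The highest PV values of Ighm and Mzb1 came from the shallow sum of PV2, where they are 2 counts and 1 count. Tnfrsf17 had a log2 difference of -0.51 ± 0.24 (SE, adjusted p = 0.607) at levels of 5.90 to 30.0 CPM in PV and 9.46 to 17.7 CPM in WT epithelium, and its highest value came from the shallow sum of PV2, where it is 2 counts. Xbp1 was at 75.1, 174 and 618 CPM in PV and at 264, 328 and 655 CPM in WT epithelium. PV1 and PV6 were inside the WT range. The log2 difference of Xbp1, -0.40 ± 0.39 (SE, adjusted p = 0.833, edgeR), became 0.10 with age as a covariate. Cd79b differed by -0.05 ± 0.27 and Cd79a, without the gene filter, by -0.02 ± 0.19 (SE).

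Whether the genotype difference itself differed between compartments was tested with the mouse as a block. Jchain gave -1.97 ± 0.92 (SE, adjusted p = 0.688, edgeR), Igha -2.31 ± 1.20 (adjusted p = 0.723), Mzb1 -1.08 ± 0.40 (adjusted p = 0.601) and Xbp1 -0.81 ± 0.38 (adjusted p = 0.688). A negative value means a lower PV-over-WT difference in epithelium than in stroma. For Mzb1 and Xbp1 the sign changed, from 1.03 and 0.23 in stroma to -0.23 and -0.40 in epithelium. None of 14881 genes passed by edgeR (0%), and DESeq2 called 1 gene (0.00672%), not a member. At an unadjusted p under 0.05 there were 1066 genes (7.16%), 489 with a positive value (3.29%) and 577 with a negative one (3.88%), and Jchain, Mzb1 and Xbp1 were among the latter. A difference between compartments in the size of the PV effect was thus not shown for any member. Epithelial and stromal Igha of the same mouse gave r of 0.69 over 13 mice and Jchain 0.63.

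Mice of 5 months and over were set against younger ones, since PV mice were younger. Stromal Jchain was at 53.6 to 1993 CPM in the 4 younger PV mice and at 466 and 1220 CPM in the 2 older ones. It was at 13.1 and 15.5 CPM in the 2 younger WT mice and at 18.5 to 396 CPM in the 5 older ones. The difference of the 2 genotype differences was -3.88 ± 1.68 on the log2 scale (SE, adjusted p = 0.886, edgeR). No gene passed by edgeR in either compartment (0%), DESeq2 called 1 gene in stroma and 0 in epithelium, and 822 genes (5.52%) in stroma and 537 (3.61%) in epithelium had an unadjusted p under 0.05, Jchain among the former.

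Between the compartments of the same 13 mice, all 8 tested members passed an adjusted p of 0.05, where 9380 of 14881 genes did (63%), 28.4% higher and 34.6% lower in epithelium. Pigr, the receptor that carries IgA across the epithelium, was the member with the greatest difference. It was higher in epithelium in 13 of 13 mice, as were 8.76% of genes, by 2.96 times in PV2 to 48.8 times in WT8. Both of these ratios divide by a stromal value near the background, 1 count in PV2 and 5 counts in WT8, at 0.84 and 1.3 times the negative probes. The log2 difference was 3.70 ± 0.28 (SE, adjusted p = 1.79e-09, edgeR), and the exact sign-flip permutation p of 0.000244 is the smallest that 13 pairs allow. In stroma Pigr was at 6.60 to 83.9 CPM in PV mice and 7.65 to 38.8 CPM in WT mice, with medians of 3.70 and 2.88 times the negative probes. The highest stromal value belonged to PV1, whose epithelium was also the highest of PV mice. The 12 columnar epithelium markers summed to 213 to 679 CPM in PV stroma and 216 to 481 CPM in WT stroma, and their part in stromal Pigr was not tested.

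Xbp1 was the other member higher in epithelium. Its log2 difference was 0.80 ± 0.21 (SE, adjusted p = 0.00259) with 10 of 13 mice in that direction, a share that 29.6% of genes reached, and the 3 exceptions, PV2, PV4 and PV5, were all PV mice. Ighm was lower in epithelium in 13 of 13 mice, as were 9.99% of genes, with a log2 difference of -1.91 ± 0.17 (SE, adjusted p = 1.73e-08). Within a mouse stromal Ighm was between 1.01 times, in PV2, where it rests on 3 stromal and 2 epithelial counts, and 9.89 times, in WT1, the epithelial level. Epithelial Ighm was at a median of 2.47 times the negative probes in PV mice and 3.42 times in WT mice, so it too lay near the background there.

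Jchain fell by 2.25 ± 0.52 on the log2 scale from stroma to epithelium (SE, adjusted p = 0.00100) and Igha by 2.33 ± 0.68 (adjusted p = 0.00607). Both lost the call with both plates as labelled, where 3 members kept it. Jchain was lower in epithelium in 10 of 13 mice, as were 35% of genes in at least 10, and PV4, WT4 and WT7 went the other way. Igha was lower in 9 of 13, and PV4, WT3, WT4 and WT7 went the other way. The size of this difference depended on the mouse. Stromal Jchain was 75.3 times the epithelial level in PV5, where stroma was at 1443 CPM and epithelium at 19.2 CPM. Mzb1, Cd79b and Tnfrsf17 also passed, with log2 differences of -0.59, -0.31 and -0.48, but these 3 lie near the negative probes, and Mzb1 passed in 16 and Cd79b in 10 of 24 settings. Cd79a, without the gene filter, differed by -0.46 ± 0.15 (SE, adjusted p = 0.0116).

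**Figure D4:**
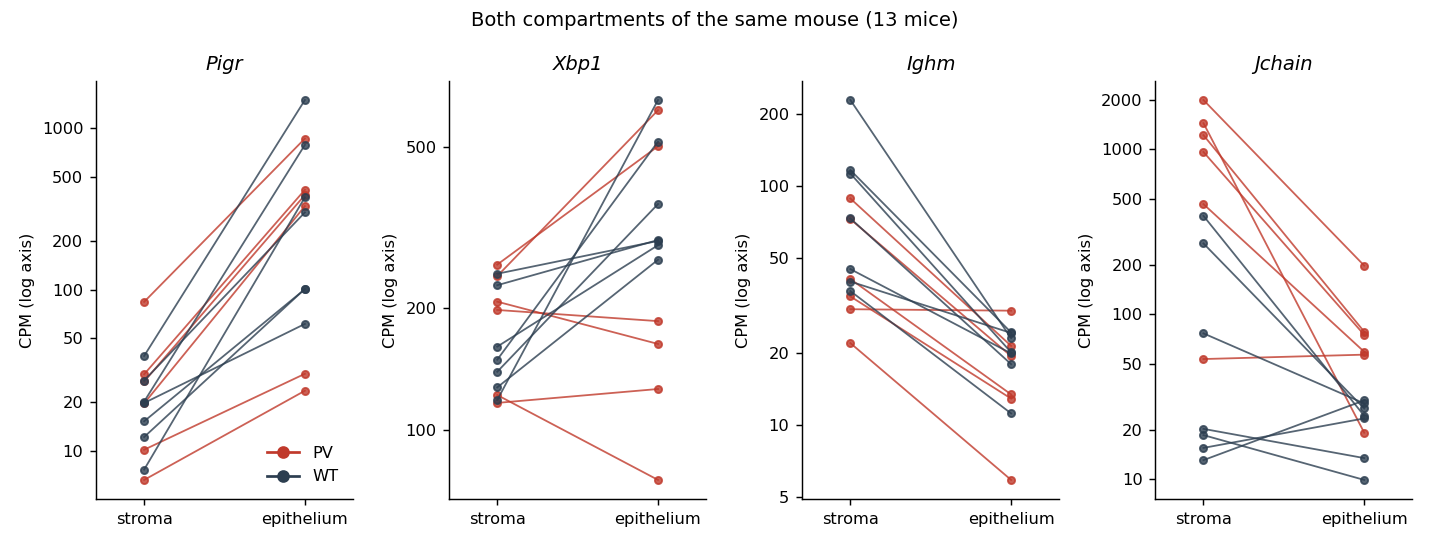
Level in stroma and epithelium of the same mouse, in CPM on a log axis, for Pigr, Xbp1, Ighm and Jchain; each line is 1 of 13 mice, 6 PV and 7 WT. Pigr goes up and Ighm down in every mouse, and Jchain goes down in 10 of 13.

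Epithelial Pigr did not separate the genotypes. It was at 23.6, 358 and 865 CPM in PV mice and at 61.2, 337 and 1499.9 CPM in WT mice, and its log2 difference was -0.41 ± 0.73 (SE, adjusted p = 0.936, edgeR). It varied 36.7-fold among PV mice and 24.5-fold among WT mice, and mice made up 84.8% and 85.6% of its variance over regions, so regions of a mouse were alike. In WT3 the 4 epithelial regions were all between 1210 and 1256 CPM. Its sign depended on age. With age as a covariate the log2 difference was 1.02, in mice of 4.0 to 6.3 months it was 1.04, and without WT3 it was 0.16, and none of these passed.

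Age went with epithelial Pigr. The 2 youngest mice, PV2 and PV5 at 2.4 months, had 30.0 and 23.6 CPM, which rest on 2 and 16 counts, and the oldest, WT2 at 7.4 and WT3 at 9.0 months, had 790 and 1499.9 CPM. Over 14 mice Pearson's r was 0.72 (permutation p = 0.00408, adjusted 0.0326 over 18 relations) and Spearman's rho 0.60 (permutation p = 0.0265, adjusted 0.0784). Without WT3 and PV2, 2 of the mice farthest from the median age, r was 0.52. PV5, as young as PV2, stayed in. Within genotypes r was 0.78 in 6 PV mice (exact permutation p = 0.106) and 0.70 in 8 WT mice (exact permutation p = 0.0527), so the relation did not pass within either. Among WT mice WT1, at 6.3 months and 61.2 CPM, was the lowest.

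Epithelial Xbp1 also went with age, with r of 0.66 over 14 mice (permutation p = 0.0109, adjusted 0.0391) and rho of 0.63 (permutation p = 0.0181, adjusted 0.0784). Without WT3 and PV2, and with PV5 kept, r was 0.39. Within WT mice r was 0.91 (exact permutation p = 0.00228) and within PV mice 0.46 (exact permutation p = 0.375). In stroma r with age was 0.70 for Ighm (permutation p = 0.00785, adjusted 0.0353), 0.72 for Cd79b (adjusted 0.0326) and 0.72 for Tnfrsf17 (adjusted 0.0326). The rho of Ighm was 0.69 (permutation p = 0.0110, adjusted 0.0662). For Ighm r was 0.47 within 6 PV mice and 0.70 within 7 WT mice (exact permutation p = 0.344 and 0.0778). Cd79b and Tnfrsf17 were not tested within genotypes. In PV2 and PV5, the mice of 2.4 months, stromal Cd79b rests on 1 and 4 counts and Tnfrsf17 on 1 and 2, near or below the negative probes. Jchain and Igha did not pass in this family of 18, with r of -0.40 and -0.48 in stroma and -0.45 and -0.54 in epithelium.

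**Figure D5:**
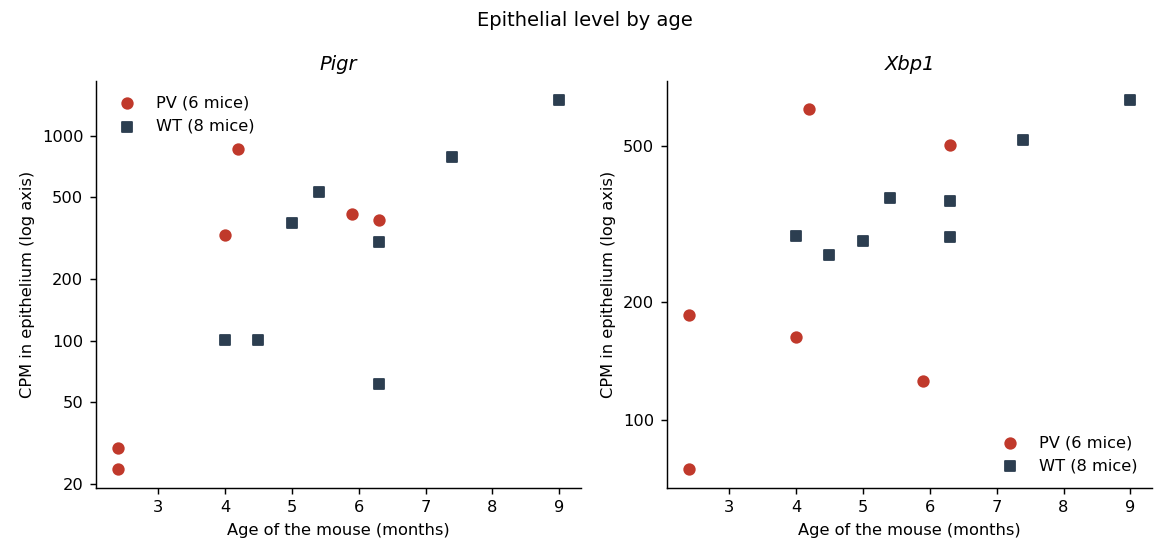
Epithelial Pigr and Xbp1, in CPM on a log axis, against the age of the mouse in months; circles are 6 PV mice and squares 8 WT mice. The 2 PV mice of 2.4 months are lowest in Pigr and the WT mice of 7.4 and 9.0 months are high in both genes.

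Genes that work with the members were read from lists. Of 12 further plasma cell genes all 12 were tested, and none passed an adjusted p of 0.05 between genotypes. At an unadjusted p under 0.05, 2 were higher and 1 lower in PV stroma. Prdm1, the transcription factor that sets the plasma cell program and is also active in other cells, differed by 0.58 ± 0.21 in stroma and 0.62 ± 0.28 in epithelium (log2, SE). Derl3, of the degradation machinery of the endoplasmic reticulum, differed by 0.50 ± 0.23 and Cd38 by -0.64 ± 0.26 in stroma. The median of the list was 0.14 in stroma and 0.08 in epithelium, beside 0.01 and -0.01 over all genes, against 3.15 and 3.19 for Jchain and Igha in stroma. Of 15 B cell genes only 6 passed the authors' filter. Pax5 and Cxcr5, markers of B cells that did not pass it, lay between 1.28 and 1.94 times the negative probes in the median mouse of every group. Other genes of the list stood higher. Ebf1 was at 18.4 times in PV and 17.9 times in WT stroma, and Blnk at 11.3 and 8.62 times in PV and WT epithelium. The 6 genes in the filtered table had median log2 differences of -0.04 in stroma and -0.37 in epithelium, and none passed an adjusted p of 0.05.

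Signals that draw or keep plasma cells showed no member past the threshold between genotypes. Cxcl12, a chemokine made by stromal cells, differed by -0.55 ± 0.32 in stroma and -1.10 ± 0.23 in epithelium (log2, SE, adjusted p = 1.00 and 0.138). Tnfsf13, which encodes the survival factor APRIL, differed by 0.55 ± 0.23 in epithelium (adjusted p = 0.575). Ccl28, the epithelial chemokine that attracts IgA-secreting cells, was 3.30 ± 0.27 higher in epithelium than in stroma (adjusted p = 4.65e-09), and Cxcl12 fell by 2.79 ± 0.17 (adjusted p = 7.73e-11). Of 10 tested genes of this list 2 were higher and 7 lower in epithelium, beside 28.4% higher and 34.6% lower over all genes. All 14 genes of the unfolded protein response were tested, and 10 were higher and 2 lower in epithelium, beside the same shares over all genes. None passed between genotypes, with medians of 0.07 in stroma and 0.28 in epithelium.

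The transport side was set beside other secreted products of the mucosa. Of 11 mucosal secretory genes 10 were higher in epithelium, beside 28.4% of all genes, with a median log2 difference of 3.11. Wfdc2, a protease inhibitor, had the greatest, 4.31 ± 0.17 (SE, adjusted p = 6.25e-13, edgeR). None passed between genotypes. Fcgrt, which encodes the neonatal Fc receptor for IgG, went the other way from Pigr and fell by 2.83 ± 0.14 on the log2 scale from stroma to epithelium (SE, adjusted p = 5.25e-12).

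Markers of other cells were summed for the stroma in which Jchain and Igha differed. T cell markers, 10 measured, summed to 79.2 to 223 CPM in PV stroma and 118 to 210 CPM in WT stroma. Macrophage markers, also 10, summed to 274 to 1512 CPM and 553 to 3119 CPM. The 6 tested T cell markers lay near the negative probes, at 2.12 (Trbc1) to 3.70 times (Lck) in the median mouse of PV stroma. By immunohistochemistry the paper found more CD3 and CD8a positive cells in the mutant stroma. None of 6 and 10 tested markers of T cells and macrophages had an unadjusted p under 0.05 by edgeR in stroma. Of 8 endothelial markers 2, of 7 smooth muscle markers 2 and of 10 fibroblast markers 1 did, all higher in PV stroma. Of 12 columnar epithelium markers 2 did and 9 had a positive log2 difference, and of 11 mucosal secretory genes 3 did and all 11 were positive, with a median of 0.56. Over all 14881 genes, 316 (2.12%) were higher at that level and 7739 had a positive log2 difference. The part of the cells marked by these lists in the plasma cell values was not tested. No marker of these lists was at 0 in the summed counts, in which the table's zeros stand as 1.

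By likeness over the 13 stromal sums, Pearson's r of log2 CPM, the genes nearest to Jchain were Igha (0.96), Igkc (0.96), Mzb1 (0.89), Rasip1 (0.86) and Tnni2 (0.82). Rasip1 and Tnni2 ran over narrow ranges, 27.6 to 50.8 CPM and 5.81 to 35.2 CPM. The genes nearest to Pigr over the 14 epithelial sums were Plac8 (0.96), Sprr2e (0.96), Prom1 (0.94), Ecm1 (0.93) and Plcg2 (0.93). Plac8 ran from 15.0 to 2659.7 CPM and Sprr2e, a gene of the cornified envelope family, from 28.0 to 3040.1 CPM. Mice with low Pigr thus had low Sprr2e and Plac8 as well, and these values carry no test.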

How the data were processed

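RNA of fixed mouse uterus was measured by GeoMx whole-transcriptome profiling, with UMI-deduplicated probe counts per region. The authors deposited expected counts per target and region, in which 1.66% of first-plate values had been 0 and stand as 1, and a filtered table of signal values scaled to the third quartile (Q3) of each region, holding targets detected in at least 10% of regions. Per the labels the build was mm10 and R 4.1.2 was used. Each count stood for a median of 8.99 aligned reads.

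Counts of first-plate regions were summed per mouse and compartment and rounded. Sums were tested over the 14881 filtered targets with TMM scaling and edgeR 4.0.16 (R 4.3.3), quasi-likelihood test, Benjamini-Hochberg over all genes, threshold 0.05. Compartments were compared with the mouse as a block, as both come from the same animal: their deviations correlated at 0.16 to 0.53 in all 13 mice. Single genes were also tested by exact permutation over mice, two-sided, and correlations with 100000 permutations. CPM used a prior count of 2 on the log2 scale. Per-mouse fits without the filter, with DESeq2 1.42.0, limma 3.58.1 on Q3 signal (pseudocount 1), other scaling, both plates, subtracted negative probes, true zeros, age, mice with at least 2 regions and single mice left out were alternatives. The code was tested on simulated data.

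The members and all gene lists were chosen with earlier results of these data known. All 9 members are named, and of each other list at most 4 genes per comparison, the 2 highest and the 2 lowest by log2 fold change, plus B cell markers for their level. Region totals ran from 61691 to 3130397.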

Additional observations from a re-analysis of the deposited data

Results flagged for a closer look

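Of 44 groups of members and light chains by compartment and genotype, 4 held a mouse whose gap to its neighbour was large against the range of its group on the log2 scale, where chance gives about 1 in 20 groups. Igkc, the kappa light chain, was at 281 CPM in the stroma of PV4, and the next PV mouse was at 3038 CPM. PV4 was also the lowest PV mouse in Igha and Jchain. Ighm was at 11.2 CPM in the epithelium of WT4, against 18.0 CPM in the next WT mouse. Cd79b was at 2.95 CPM in the epithelium of PV5, against 11.1 CPM in the next PV mouse, and at 8.71 CPM in the stroma of WT4, against 15.3 CPM in the next WT mouse. These 2 low values of Cd79b rest on 2 and 12 counts, at 0.67 and 1.86 times the negative probes.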

How the results depend on the processing

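Of 624 values of members under alternatives, 568 kept direction and side of the threshold, 27 lost the call, 2 gained it and 27 changed sign. Of 90 counts of members called, 88 stayed within 1.5 times. The exceptions were DESeq2 in epithelium, which called 2 members where edgeR called 0, and both plates between compartments, which called 3 in place of 8. The causes were not tested. Leaving out 1 mouse gave 6 to 8 members called between compartments and 0 between genotypes, and without the replicate block 6 were called between compartments. The changes of sign were these. In stroma Cd79b (0.04) was -0.00639 with upper-quartile scaling, -0.0551 with both plates, -0.13 with limma on Q3 means, -0.12 with limma over regions and -0.12 to 0.12 without single mice. Stromal Pigr (0.80) ran from -0.00621, without PV1, to 1.09 without single mice. Stromal Tnfrsf17 (-0.13) was 0.16 with age as a covariate and 0.0915 in mice of 4.0 to 6.3 months, a setting added after the data were seen. In epithelium Mzb1 (-0.23) was 0.0592 with both plates. Epithelial Pigr (-0.41) was 1.02 with age, 1.04 in the narrower ages and -0.92 to 0.16 without single mice. Epithelial Cd79b (-0.05) was 0.020 with no gene filter, 0.0882 with both plates, 0.29 with age, 0.23 in the narrower ages and -0.20 to 0.0884 without single mice. Epithelial Xbp1 (-0.40) was 0.10 with age and 0.19 in the narrower ages. For genotype by compartment, Cd79b (0.02) was -0.00761 with upper-quartile scaling and -0.0578 without the replicate block, and Tnfrsf17 was 0.0774 with both plates. Members near the negative probes have the least depth, namely Cd79a, Cd79b, Tnfrsf17, Mzb1, Ighm in epithelium and Jchain in the median WT mouse. So do the sums of PV2, and age and genotype overlap only in part.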
